A study of Mus musculus with 32 samples.

Results

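Whole-cortex RNA of socially isolated mice was compared with that of group-housed mice in 8 of the 32 RNA sequencing libraries of the study. The 8 were chosen by their labels alone: the 4 input libraries of the Sh (single-housed) group and the 4 of the Gh (group-housed) group, both given vehicle. All mice were adult males of the strain Tg(S100a10-EGFP/Rpl10a)ES691Htz, so that controls and isolated mice alike carried the transgene, in which S100a10 regulatory elements drive ribosomal protein L10a tagged with EGFP. Sh mice lived alone from weaning into adulthood, and Gh mice were littermates kept together. Each library was made from the cortices of 3 mice, pooled after the hippocampi and striata had been cut away, so that no value refers to a single animal. Input is the RNA of the homogenate before immunopurification: the cell type in the labels, layer 5a S100a10 neurons, describes the purified fraction and not these libraries. The question was which genes differ between isolated and group-housed mice when all cells of the cortex are read together.

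Rearing in isolation from weaning is a widely used model of chronic social stress in rodents. The cortex holds excitatory neurons in layers, inhibitory interneurons, astrocytes, which take up glutamate and potassium released by neurons and return glutamine to them, oligodendrocytes, which make myelin, and microglia, vessels and membranes. RNA of the whole tissue is a mixture of all of these, and fewer cells of a type cannot be told apart from less RNA per cell.

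Counts in genes ranged from 25886081 to 34515281 in the Gh libraries and from 19265435 to 29303133 in the Sh libraries, and 45.1% to 55.2% of the reads of the 8 libraries fell outside annotated features. Sh replicates 1 and 4 carried RNA of the pituitary, a gland that lies below the brain and outside the dissected cortex. Relative to library size alone, Gh, the growth hormone gene (written Gh as is the housing group), stood at 95.5 and 88.7 CPM (the counts-per-million unit) in these replicates, Prl, which encodes prolactin, at 34.0 and 35.1 CPM, and Cga, the shared subunit of the glycoprotein hormones, at 11.6 and 12.1 CPM. In the other 6 libraries Gh and Prl were at 0 to 0.0386 CPM and Cga at 0 to 0.0371 CPM. Pomc, the precursor of corticotropin, stood at 8.23 and 7.16 CPM against 0.0911 to 0.817 CPM. Over a list of 16 pituitary genes, 15 had a count in each of the 2 libraries, and the sum was 167 and 163 CPM against 5.27 to 8.09 CPM in the other 6. The test was therefore also run without Sh replicates 1 and 4, and the plot of list medians shows every list with at least 5 tested genes both ways.

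**Figure D1:**
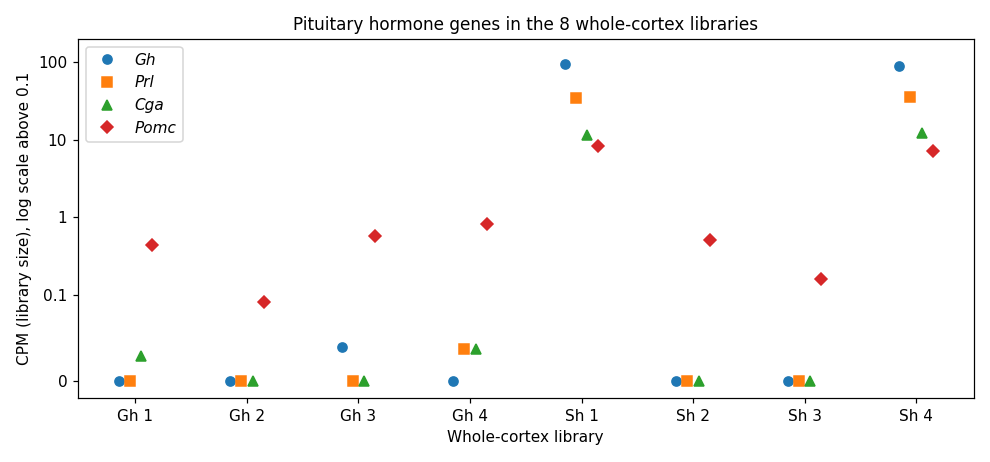
CPM (relative to library size, logarithmic above 0.1) of the pituitary hormone genes Gh, Prl, Cga and Pomc in each Gh and Sh whole-cortex library, where symbols mark genes. Sh 1 and Sh 4 lie between 7.16 and 95.5 CPM, and the other 6 libraries lie below 1 CPM for all 4 genes.

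Libraries also resembled each other in pairs. Within the Gh and Sh groups, replicates 1 and 4, and replicates 2 and 3, differed by a mean chi-square per gene of 5.96 to 9.15, and the 8 other pairs of replicates by 11.3 to 25.4. Counting noise alone would give values near 1. Libraries prepared separately from the same pool could also exceed it, so these values cannot decide whether a pair shares a pool. The libraries were kept separate in the main fits. The study describes the 4 samples of a condition as biological replicates of 3 pooled mice each. The sources used here do not mention the likeness of the pairs, and whether a pair shares mice was not tested. The p-values measure the spread between these libraries, which may be partly technical. Setting aside Sh 1 and 4 leaves Sh 2 and 3, which may be a single pool, against Gh libraries of both kinds. Replicates 2 and 3 and replicates 1 and 4 were therefore also compared each alone. The pairs were found by likeness in these same counts. Fits by pair, and the test of the difference between pairs, take the spread from within pairs, so that their p-values may come out too small. If each pair is a single pool, that spread holds no variation between pools of mice. Gh 2 and 3 stood apart from Gh 1 and 4 in further measures, with fewer reads outside features (45.1% and 47.0%, against 51.6% in both others) and a larger share of counts in the ribosomal RNA precursor Rn45s (2.34% and 2.44%, against 1.64% and 1.86%).

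Few genes differed. The fit was over all 16 input libraries of the study, so that isolated mice given fluoxetine helped to set the spread. Of 15690 genes tested, 13 passed edgeR's quasi-likelihood test with Benjamini-Hochberg adjustment (0.0829%), 7 higher (0.0446%) and 6 lower (0.0382%) in Sh. At an unadjusted p under 0.05 there were 1765 genes (11.2%), 853 higher (5.44%) and 912 lower (5.81%), and the median log2 fold change of all genes was -0.01. Without Sh 1 and 4, 3 of 16228 genes passed (0.0185%), 1 higher (0.00616%) and 2 lower (0.0123%), and 1316 had an unadjusted p under 0.05 (8.11%). Ndrg2 and Fam107a, both lower in Sh, passed in both fits. With replicates 1 and 4 summed and 2 and 3 summed, as would be proper if each pair were a single pool, the 2 samples a group gave no call by the same test, with 1029 genes of 16802 at an unadjusted p under 0.05. DESeq2 on the separate libraries, again with all input groups in the fit, gave 150 calls, 76 higher and 74 lower. In edgeR with the Gh and Sh libraries alone there were 6 calls.

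Among the lower genes were 2 that the cortex expresses mainly in astrocytes, Glul and Aldoc, together with Ndrg2, also an astrocyte gene, and Fam107a. Ndrg2 encodes a protein of the N-myc downstream-regulated family and lies on chromosome 14, 51905271 to 51914004 of GRCm38.p6. It stood at 457, 511, 497 and 513 CPM in Gh replicates 1 to 4 and 418, 359, 355 and 397 in Sh replicates 1 to 4 (TMM-scaled, as are all CPM from here on). Every Sh library was below every Gh library, which the naming rule required of the called genes it selects, and Sh 2 and 3 were the lowest. The group means were 495 ± 26.0 and 382 ± 30.1 CPM (SD, n = 4 each), 22.7% lower in Sh (log2 fold change -0.37, standard error 0.0559, adjusted p = 0.00539, edgeR's quasi-likelihood test). With Sh 1 and 4 set aside the log2 fold change was -0.47 (adjusted p = 0.00101, edgeR's quasi-likelihood test). It was -0.50 for replicates 2 and 3 alone and -0.25 for replicates 1 and 4 alone.

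Fam107a, also named DRR1, encodes an actin-binding protein that glucocorticoids and stress induce in the brain, and lies on chromosome 14, 8296270 to 8317607. It stood at 425, 392.4, 388 and 451 CPM in Gh replicates 1 to 4 and 349, 305, 304 and 343 in Sh replicates 1 to 4. The groups did not overlap, and replicates 2 and 3 were the lowest of each group. Means were 414 ± 29.7 and 325 ± 24.3 CPM (SD, n = 4 each), 21.5% lower in Sh (log2 fold change -0.35, standard error 0.0590, adjusted p = 0.0133, edgeR's quasi-likelihood test), with a log2 fold change of -0.45 (adjusted p = 0.00553) without Sh 1 and 4. Replicates 2 and 3 alone gave -0.36 and replicates 1 and 4 alone -0.34, so that the change had the same size in both pairs.

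Glul encodes glutamine synthetase, the enzyme by which astrocytes turn glutamate into glutamine (chromosome 1, 153899929 to 153909723). It stood at 963, 864, 948 and 916 CPM in Gh replicates 1 to 4 and 751, 725, 738 and 801 in Sh replicates 1 to 4, with no overlap (log2 fold change -0.29, standard error 0.0573, adjusted p = 0.0347, edgeR's quasi-likelihood test). Aldoc encodes aldolase C, the brain form of a glycolytic enzyme (chromosome 11, 78323073 to 78327781), and stood at 181, 211, 198 and 193 CPM in Gh replicates 1 to 4 and 168, 146, 155 and 163 in Sh replicates 1 to 4 (log2 fold change -0.31, standard error 0.0622, adjusted p = 0.0347, edgeR's quasi-likelihood test). Gh 1 was the lowest Gh library for Aldoc and Sh 1 the highest Sh library, and the smallest gap between the groups lay between these replicates. Kcnab3 encodes an accessory beta subunit of voltage-gated potassium channels (chromosome 11, 69326258 to 69333041) and stood at 51.5, 56.7, 61.9 and 55.6 CPM in Gh replicates 1 to 4 and 41.7, 46.5, 44.6 and 42.5 in Sh replicates 1 to 4 (log2 fold change -0.36, standard error 0.0705, adjusted p = 0.0347, edgeR's quasi-likelihood test). When Sh 1 and 4 were left out, none of these 3 passed the test: the log2 fold changes were -0.34 for Glul (adjusted p = 0.0997), -0.39 for Aldoc (adjusted p = 0.0737) and -0.31 for Kcnab3 (adjusted p = 0.298), all with the same sign. The sixth lower gene, 2810006K23Rik, is a predicted model that overlaps Mphosph9, and no source read here names the counter or how it treated strand, which leaves reads of the overlap uncertain (log2 fold change -0.43). It is named after its values were seen.

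The promoters of the 4 astrocyte or stress-related genes are shown because these genes moved in the same direction. Windows reach from 250 bases before to 50 after an annotated start (RefSeq, GRCm38.p6), read 5′ to 3′ on the strand of the gene. Capitals mark the hexamer AGAACA, the core bound by glucocorticoid receptor, and the GC box GGGCGG, on either strand.
Ndrg2, chr14:51913955-51914254, minus strand: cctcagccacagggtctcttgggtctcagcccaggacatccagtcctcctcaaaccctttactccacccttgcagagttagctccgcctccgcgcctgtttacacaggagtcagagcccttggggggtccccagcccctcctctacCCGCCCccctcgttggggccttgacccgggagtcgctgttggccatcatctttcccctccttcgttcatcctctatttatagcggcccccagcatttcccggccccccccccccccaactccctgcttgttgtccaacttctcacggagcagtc
Fam107a, chr14:8317558-8317857, minus strand: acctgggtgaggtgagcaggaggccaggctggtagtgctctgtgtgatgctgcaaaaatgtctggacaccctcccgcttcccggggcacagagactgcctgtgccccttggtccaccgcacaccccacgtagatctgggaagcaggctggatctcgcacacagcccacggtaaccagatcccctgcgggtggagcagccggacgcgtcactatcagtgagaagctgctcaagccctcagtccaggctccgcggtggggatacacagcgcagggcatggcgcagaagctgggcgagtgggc
Fam107a, chr14:8309730-8310029, minus strand: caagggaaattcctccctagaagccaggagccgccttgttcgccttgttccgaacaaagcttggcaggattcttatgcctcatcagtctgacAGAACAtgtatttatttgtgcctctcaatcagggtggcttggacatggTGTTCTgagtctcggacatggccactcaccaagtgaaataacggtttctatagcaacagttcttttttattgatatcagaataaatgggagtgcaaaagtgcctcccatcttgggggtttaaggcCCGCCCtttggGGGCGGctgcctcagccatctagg
Glul, chr1:153899679-153899978, plus strand: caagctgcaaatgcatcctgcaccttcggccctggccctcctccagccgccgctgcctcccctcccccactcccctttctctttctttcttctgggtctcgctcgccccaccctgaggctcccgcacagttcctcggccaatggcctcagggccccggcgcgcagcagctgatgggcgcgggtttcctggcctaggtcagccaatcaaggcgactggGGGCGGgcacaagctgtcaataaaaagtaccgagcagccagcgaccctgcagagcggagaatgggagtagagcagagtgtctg
Aldoc, chr11:78322823-78323122, plus strand: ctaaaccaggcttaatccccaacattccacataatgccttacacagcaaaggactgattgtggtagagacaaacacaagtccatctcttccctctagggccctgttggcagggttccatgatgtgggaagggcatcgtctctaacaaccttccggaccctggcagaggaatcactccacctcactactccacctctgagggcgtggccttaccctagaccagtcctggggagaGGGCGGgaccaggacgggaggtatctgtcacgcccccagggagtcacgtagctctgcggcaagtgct

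The window at the inner start of Fam107a held AGAACA on both strands, and the windows shown for the outer start of Fam107a and for Ndrg2, Glul and Aldoc held it 0 times. AGAACA was present in 19.0% of 32851 promoter windows of the mouse, and the full palindromic element of the receptor in 0.00913%, with none in these windows. GGGCGG was present in 35.7% of all windows. Of the 12 genes named by rule in this comparison 10 had a window, 20 windows in all. AGAACA lay in 3 of these windows, from 2 genes, and GGGCGG in 12, from 9 genes. The cyclic AMP response element TGACGTCA lay in 0 (1.79% of all windows). Windows of a gene can overlap and hold the same sites, as those at the inner start of Fam107a do. Ndrg2 had 3 windows and Aldoc 2, of which 1 each is shown. A match describes letters and not a bound site.

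Of the 7 higher genes, Cnr1, Ncam2, Acvr1c, Fat3 and Bves encode receptors, adhesion molecules or other membrane proteins, and Mtf2 had the smallest p. Mtf2 encodes a subunit of Polycomb repressive complex 2, which marks chromatin for silencing (chromosome 5, 108065660 to 108109219). It stood at 61.7, 61.6, 59.6 and 59.5 CPM in Gh replicates 1 to 4 and 77.9, 79.6, 79.9 and 76.0 in Sh replicates 1 to 4. The libraries of each group lay within a narrow range and far from those of the other, with means of 60.6 ± 1.24 and 78.4 ± 1.81 CPM (SD, n = 4 each; log2 fold change 0.37, standard error 0.0596, adjusted p = 0.00866, edgeR's quasi-likelihood test). Setting aside Sh 1 and 4, it was at 0.40 (adjusted p = 0.0506), just above the threshold of 0.05, with a fold change as large.

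Cnr1 encodes the cannabinoid receptor CB1, which lies on axon terminals and lowers transmitter release (chromosome 4, 33923171 to 33948831). It stood at 164, 164, 170.2 and 178 CPM in Gh replicates 1 to 4 and 207, 198, 222 and 208 in Sh replicates 1 to 4 (log2 fold change 0.30, standard error 0.0602, adjusted p = 0.0347, edgeR's quasi-likelihood test). Ncam2, a neural cell adhesion molecule (chromosome 16, 81200697 to 81624290), stood at 200.1, 196, 197 and 195 CPM in Gh replicates 1 to 4 and 230.3, 243, 245 and 251 in Sh replicates 1 to 4 (log2 fold change 0.30, standard error 0.0552, adjusted p = 0.0287, edgeR's quasi-likelihood test). The Gh libraries of Ncam2 lay close together, and all Sh libraries lay above them. Acvr1c encodes the activin receptor ALK7 (chromosome 2, 58267453 to 58357896, overlapping the models Gm13544 and Gm13545) and stood at 53.9, 51.8, 55.4 and 53.9 CPM in Gh replicates 1 to 4 and 67.3, 67.0, 72.4 and 68.9 in Sh replicates 1 to 4 (log2 fold change 0.36, standard error 0.0690, adjusted p = 0.0347, edgeR's quasi-likelihood test).

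Fat3 encodes an atypical cadherin of developing neurons (chromosome 9, 15910189 to 16502681) and stood at 298, 267, 276 and 300.4 CPM in Gh replicates 1 to 4 and 326, 343, 332 and 353 in Sh replicates 1 to 4 (log2 fold change 0.25, standard error 0.0493, adjusted p = 0.0347, edgeR's quasi-likelihood test). Hs6st2 encodes a sulfotransferase of heparan sulfate (chromosome X, 51386637 to 51681705) and stood at 29.7, 24.9, 26.0 and 28.6 CPM in Gh replicates 1 to 4 and 37.1, 39.5, 31.9 and 38.8 in Sh replicates 1 to 4 (log2 fold change 0.43, standard error 0.0857, adjusted p = 0.0347, edgeR's quasi-likelihood test). Both groups were apart for each gene, but the gap was small: Sh 3 was the lowest Sh library of Hs6st2 and Gh 1 the highest of Gh. Bves encodes a membrane protein that binds cyclic AMP and is best known in muscle (chromosome 10, 45335735 to 45372484). It had 4, 6, 3 and 7 counts in Gh replicates 1 to 4 and 34, 26, 18 and 25 in Sh replicates 1 to 4, which is 0.118, 0.182, 0.119 and 0.260 CPM against 1.33, 0.891, 0.726 and 1.299 (log2 fold change 2.61, standard error 0.462, adjusted p = 0.0191, edgeR's quasi-likelihood test), so that its fold change rests on few reads. Without Sh 1 and 4 these 6 genes kept log2 fold changes of 0.31 (Cnr1), 0.31 (Ncam2), 0.37 (Acvr1c), 0.24 (Fat3), 0.39 (Hs6st2) and 2.23 (Bves), with adjusted p of 0.134 to 0.279 by edgeR's quasi-likelihood test.

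A single gene passed only without Sh 1 and 4. Cxadr, the coxsackievirus and adenovirus receptor, an adhesion molecule of cell junctions, is named after its values were seen. It stood at 47.6, 43.8, 49.96 and 48.8 CPM in the Gh libraries and 57.6, 69.0, 71.1 and 51.8 in the Sh libraries. Sh 2 and 3 were the highest of the 8 libraries. The log2 fold change was 0.56 (adjusted p = 0.0086) without Sh 1 and 4 and 0.40 (adjusted p = 0.0837) with them, by edgeR's quasi-likelihood test.

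The other isolated mice of the study, given fluoxetine at 0.167 g/L in drinking water for 21 days according to the labels and divided by their behavior into Sh + Flx and Sh + Flx anxious, give values beside these. Their input libraries were set against the same Gh libraries, so that they are no independent comparison with Gh. Ndrg2 stood at 389 ± 16.3 CPM in Sh + Flx and 363 ± 15.0 in Sh + Flx anxious (SD, n = 4 each), means near that of Sh and below the lowest Gh library. Fam107a stood at 342 ± 19.0 and 310.0 ± 11.6 CPM, and Glul at 716 ± 53.6 and 727 ± 54.8 CPM. Cnr1 stood at 245 ± 14.1 and 266 ± 21.9 CPM and Acvr1c at 78.8 ± 5.68 and 95.5 ± 8.41, with means above those of Sh. Mtf2, at 68.9 ± 2.41 and 70.4 ± 3.23 CPM, had means between those of Gh and Sh. These differences from Sh were not tested. The Sh libraries with pituitary RNA take no part in these groups, whose pituitary sum was 6.47 to 9.71 CPM.

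**Figure D2:**
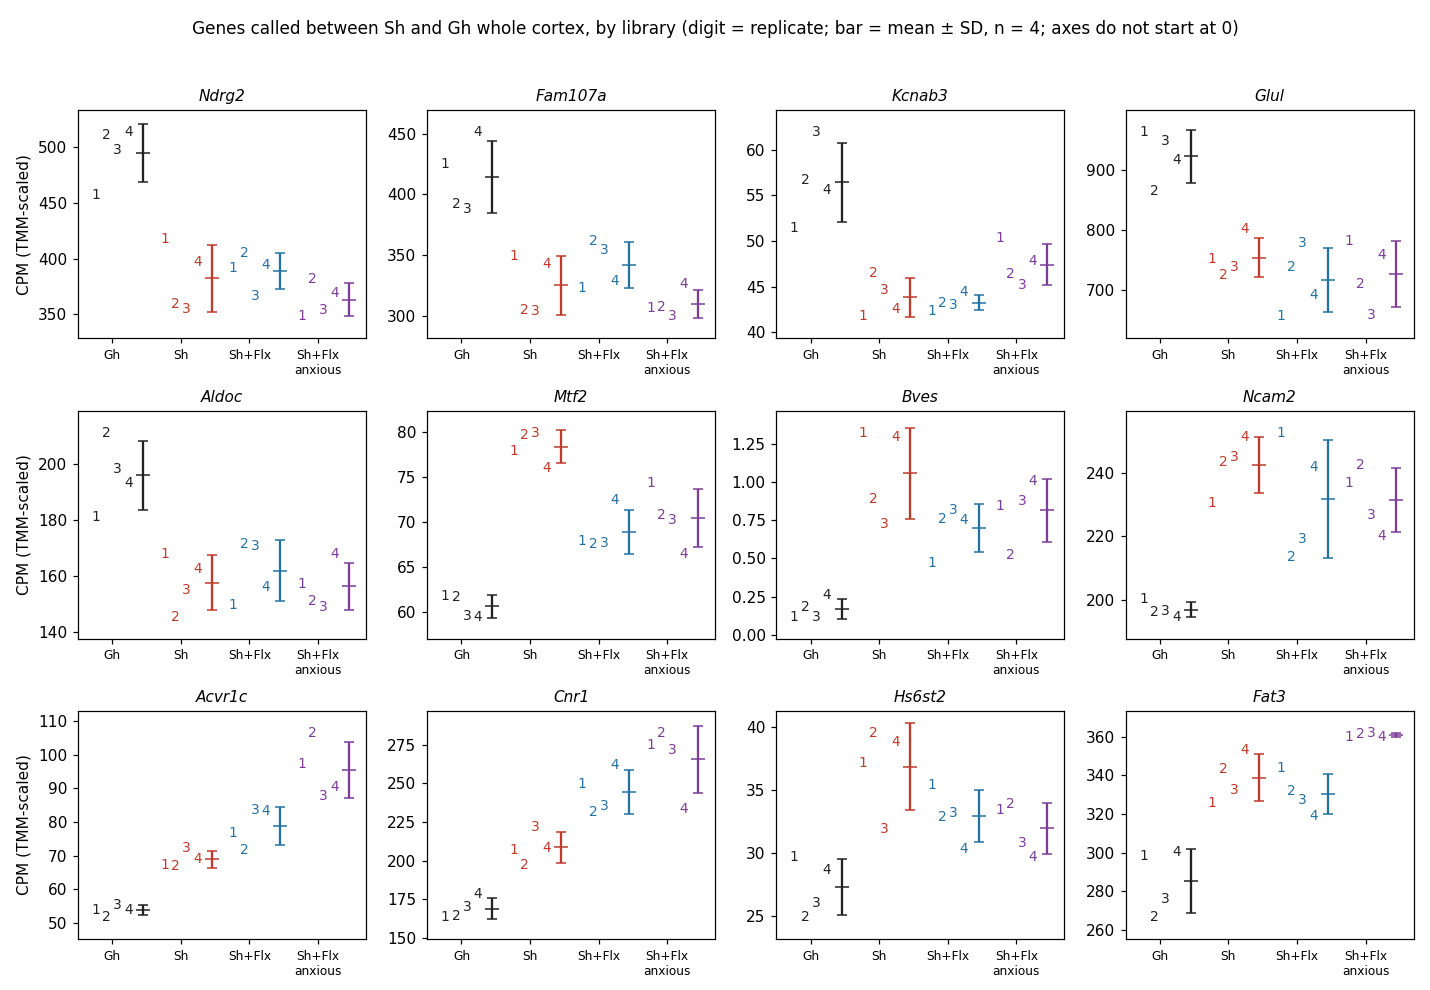
TMM-scaled CPM of the 12 genes called between Sh and Gh that the naming rule selects, by library in the 4 input groups (digits are replicate numbers, bars the mean ± SD of 4 libraries, and axes do not start at 0). The rule admits only genes without overlap between Sh and Gh. The 4 Sh libraries therefore lie apart from the 4 Gh libraries for every gene, lower for Ndrg2, Fam107a, Kcnab3, Glul and Aldoc and higher for the other 7.

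The direction of astrocyte genes as a list depended on the libraries compared. Of 16 markers tested, 2 were called lower, Glul and Aldoc (0.0382% of all genes were), 0 higher, and 4 had Sh libraries entirely below Gh, which is 25.0% against 3.11% of all genes, while 0 were entirely above (2.76% of all genes). The median log2 fold change of the list was 0.05. Aldh1l1, a folate enzyme and pan-astrocyte marker, stood at 9.27, 10.7, 9.56 and 12.2 CPM in the Gh libraries and 8.70, 8.63, 8.34 and 6.91 in the Sh libraries (log2 fold change -0.36, adjusted p = 0.313, edgeR's quasi-likelihood test). S100b, a calcium-binding protein, stood at 52.1, 45.0, 47.6 and 49.4 CPM in the Gh libraries and 44.9, 43.7, 39.1 and 43.0 in the Sh libraries (log2 fold change -0.19, adjusted p = 0.355). For both genes every Sh library lay below every Gh library, by a small margin for S100b, without passing the test. With Sh 1 and 4 set aside their log2 fold changes were -0.30 and -0.23, and neither passed.

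Other astrocyte genes varied between the library pairs. Gja1, which encodes the gap junction protein connexin 43, stood at 34.4, 38.3, 42.3 and 44.8 CPM in the Gh libraries and 63.4, 31.9, 34.3 and 57.2 in the Sh libraries. Sh 1 and 4 were the highest of all and Sh 2 and 3 the lowest. Slc1a2, the main glutamate transporter, stood at 3130, 2231, 2354 and 3268 CPM in the Gh libraries and 3855, 2702, 2533 and 3882 in the Sh libraries, with replicates 1 and 4 high in both groups. Between the pairs the Sh against Gh change of Gja1 differed by 0.89 on the log2 scale (adjusted p = 0.00481, edgeR's quasi-likelihood test for the difference), while that of Slc1a2 was 0.19 for replicates 2 and 3 and 0.27 for replicates 1 and 4, higher in Sh in both, with no call of a difference (0.08, adjusted p = 0.794). Without Sh 1 and 4 all 16 astrocyte markers had a negative log2 fold change, against 7 of 16 with all 8 libraries, in a comparison that sets Sh 2 and 3 against Gh libraries of both pairs. There the list median was -0.29, against -0.01 over all genes. It was -0.15 for replicates 2 and 3 alone and 0.14 for replicates 1 and 4 alone. Glul had a log2 fold change of -0.34 to -0.27 in all 19 alternatives. Gja1 and Slc1a2 were named after their values were seen, as were Npas4 and Ttr in what follows.

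Myelin genes gave no call in the fits with or without Sh 1 and 4. Of 25 oligodendrocyte and myelin genes, 5 had Sh libraries entirely below Gh (3.11% of all genes did) and 0 above (2.76% of all genes), and 0 passed the test. Cnp, a myelin enzyme, stood at 159.6, 169, 183 and 169 CPM in the Gh libraries and 144, 149, 138 and 144 in the Sh libraries (log2 fold change -0.24, adjusted p = 0.0929, edgeR's quasi-likelihood test). Mobp, a structural protein of myelin, stood at 172, 158, 157 and 199 CPM in the Gh libraries and 126, 139, 138 and 134 in the Sh libraries (log2 fold change -0.35, adjusted p = 0.103). Sox10, the transcription factor of the lineage, stood at a log2 fold change of -0.21 (adjusted p = 0.307), while Ugt8a, which makes myelin galactolipid, had the opposite sign at 0.19 (adjusted p = 0.349). Mbp, myelin basic protein, stood at 225, 265, 278 and 243 CPM in the Gh libraries and 234, 228, 236 and 227 in the Sh libraries, which overlap (log2 fold change -0.13, adjusted p = 0.414). In the fit without Sh 1 and 4 the log2 fold change of Cnp was -0.25 and that of Mobp -0.31. The change of Mobp was -0.18 for replicates 2 and 3 and -0.52 for replicates 1 and 4 (-0.33, adjusted p = 0.284 for the difference). The list median was -0.08, and -0.13 without Sh 1 and 4, -0.17 for replicates 2 and 3 and 0.001 for replicates 1 and 4.

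No gene of the other cell type lists passed the test in either fit. Interneuron markers had a median of 0.01 over 24 genes (Gad1, which makes GABA, 0.22, and Reln, reelin, 0.20), and markers of layers 2 to 4, of layer 5 and of layer 6 with subplate had medians of -0.03 (14 genes), -0.03 (16) and 0.05 (15). Pcp4, a calmodulin regulator of layer 5, lay at a log2 fold change of -0.14 (adjusted p = 0.267, edgeR's quasi-likelihood test). Microglial markers had a median of 0.11 over 14 genes, with summed levels of 69.7 to 90.7 CPM in Gh and 84.1 to 102 in Sh. Endothelial, mural, meningeal and oligodendrocyte precursor lists had medians of 0.04 (11 genes), -0.29 (11), -0.004 (12) and 0.07 (11), with overlapping sums. Setting aside Sh 1 and 4, these medians were -0.14, -0.28, -0.18 and -0.03, and that of microglia 0.06. The endothelial median changed sign in 11 of 19 alternatives. Blood markers lay at 2.37 to 6.51 CPM in sum over 9 genes in the 8 libraries, with Hbb-bt and Hbb-b2, of adult hemoglobin, at 0 in all 8. Only 1 of the 9, Alas2, had reads enough to be tested, and it stood at 1.90 to 5.97 CPM. How reads that match several genes were counted is not stated, and how much blood the tissue held was not tested.

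Genes of protein synthesis and of mitochondrial respiration lay lower in Sh by small amounts that no single gene carried past the test. Of 78 genes of cytosolic ribosomal proteins, 0 were called, 77 had a negative log2 fold change, and 20 (25.6%) had all Sh libraries below all Gh libraries, against 3.11% of all genes. Their median log2 fold change was -0.19, from -0.59 to 0.04, against a median of -0.01 over all genes. Rps16, of the small subunit, stood at 37.7, 40.1, 41.4 and 36.2 CPM in the Gh libraries and 30.8, 33.5, 28.4 and 29.8 in the Sh libraries (log2 fold change -0.34, adjusted p = 0.0947, edgeR's quasi-likelihood test), and Rpl21, of the large subunit, at 188, 198, 198 and 179 CPM in the Gh libraries and 157, 164, 158 and 163 in the Sh libraries (log2 fold change -0.25, adjusted p = 0.0953). For both, all Sh libraries were below all Gh libraries. Of 74 oxidative phosphorylation genes, 0 were called, 72 were negative and 14 (18.9%) had Sh libraries entirely below Gh, with a median of -0.17. Cox8a and Cox5b, subunits of cytochrome c oxidase, had log2 fold changes of -0.26 and -0.41 (adjusted p = 0.071 and 0.123). Cox5b stood at 46.1, 64.5, 54.7 and 45.9 CPM in the Gh libraries and 37.4, 45.1, 40.7 and 35.3 in the Sh libraries. Without Sh 1 and 4 the log2 fold changes were -0.33 (Rps16), -0.24 (Rpl21), -0.25 (Cox8a) and -0.30 (Cox5b), with none called. Proteasome subunits had a median of -0.15 over 31 genes, with 3 (9.68%) entirely lower, against 3.11% of all genes, and 0 called.

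The size of these medians differed between the library pairs. For replicates 2 and 3 alone, ribosomal protein genes had a median of -0.26 with 21 called lower, and oxidative phosphorylation genes -0.22 with 14 called lower, where 1.05% of all genes were called lower. Those calls rest on the spread within pairs that may each be a single pool, and with pairs summed 0 genes were called. For replicates 1 and 4 alone the medians were -0.08 and -0.09, with 0 called. The medians without Sh 1 and 4 were -0.17 and -0.13. The summed level of ribosomal protein genes was 6020 to 7310 CPM in Gh and 5700 to 6020 in Sh. Gh 2 and 3 stood apart from the other 6 libraries: the median over the list of log2 CPM, centred over the 8 libraries, was 0.26 and 0.13 there, -0.03 and -0.008 in Gh 1 and 4 and -0.13 to -0.05 in Sh. For oxidative phosphorylation genes it was 0.25 and 0.13 in Gh 2 and 3, and Gh 1, at -0.06, lay below Sh 2, at -0.02. The part of these libraries in the result was not tested.

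Transcript length and GC content moved with the change over all genes. Of the genes tested, 14914 (95.1%) had a transcript in GENCODE vM21. The genes were divided by transcript length into 5 groups of like size. In the group with the shortest transcripts (up to 1956 bases) the median log2 fold change was -0.08, and 5.2% of genes had Sh libraries entirely below Gh against 1.21% above. In the group with the longest (from 5253 bases) the median was 0.04, and the shares were 1.78% below and 5.93% above. By GC content the medians went from 0.04 in the group of lowest GC to -0.04 in the highest. The median transcript of the ribosomal protein genes was 1076.5 bases long and that of the oxidative phosphorylation genes 1186, against 3367 over all tested genes with a length. The lists had median log2 fold changes of -0.19 and -0.17, and the group of shortest transcripts, up to 1956 bases, -0.08. That group reaches to longer transcripts than the median lengths of the lists, so these values are not matched for length. The 7 genes called higher had transcripts of 4060 (Mtf2) to 18760 bases (Fat3). The lower genes named by rule had transcripts of 2103 (Ndrg2) to 3333 bases (Fam107a). Their GC content was 38.2% to 46.6% for the higher and 49.2% to 55.2% for the lower genes, against a median of 49.4%. The called genes thus lay along the same trend as all genes. The part of length and GC content in the results was not tested.

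**Figure D3:**
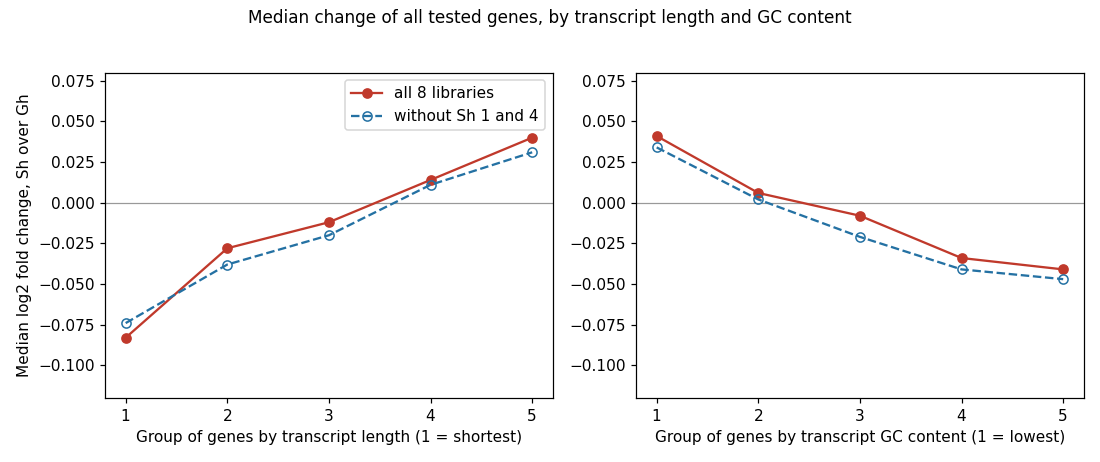
Median log2 fold change, Sh over Gh, of all tested genes in 5 groups of like size by length (left) and GC content (right) of the longest GENCODE transcript, with all 8 libraries (filled) and without Sh replicates 1 and 4 (open). The medians go from -0.08 in the shortest group to 0.04 in the longest, and from 0.04 at the lowest to -0.04 at the highest GC content.

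Receptors and channels of neurons leaned the other way, again without a call. Of 24 glutamate receptor genes, 6 (25.0%) had Sh libraries entirely above Gh, against 2.76% of all genes, 0 lay entirely below, and 0 passed the test. Their median was 0.13, and 0.09 without Sh 1 and 4, 0.18 for replicates 2 and 3 with 4 called higher (0.982% of all genes were), and 0.10 for replicates 1 and 4 with 0 called. Grik2, a kainate receptor subunit, stood at 85.1, 69.9, 70.8 and 79.4 CPM in the Gh libraries and 97.9, 94.6, 89.1 and 93.5 in the Sh libraries (log2 fold change 0.30, adjusted p = 0.139, edgeR's quasi-likelihood test), and Grin2b, an NMDA receptor subunit, at 173, 158, 164 and 163 CPM in the Gh libraries and 194, 182, 188 and 182 in the Sh libraries (log2 fold change 0.18, adjusted p = 0.265). The median transcript of this list was 5493.5 bases long, in the range of the longest group. So were those of the potassium and HCN channels (5287), axon guidance genes (5539) and perineuronal net genes (5912) that follow. That of the GABA receptors was 4729.5 bases. GABA receptors had a median of 0.08 over 16 genes, with 0 called. Voltage-gated potassium and HCN channels had a median of 0.11 over 29 genes (Kcnd2, an A-type channel, 0.23, and 0.12 without Sh 1 and 4), with 0.17 for replicates 2 and 3 and 0.02 for replicates 1 and 4, and axon guidance genes 0.08 over 62, of which 5 lay entirely above, 8.06% of the list (Nrp2, a semaphorin receptor, 0.33, and Dcc, a netrin receptor, 0.31). Cholesterol synthesis genes had a median of 0.07 over 23 genes, ErbB and neuregulin genes 0.06 over 23, G protein beta and gamma subunits -0.09 over 14 and perineuronal net genes 0.06 over 15, with 0 called in each. With Sh 1 and 4 left out Grik2 was at 0.27 and Grin2b at 0.17, and the median of the perineuronal net genes had the other sign (-0.09).

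**Figure D4:**
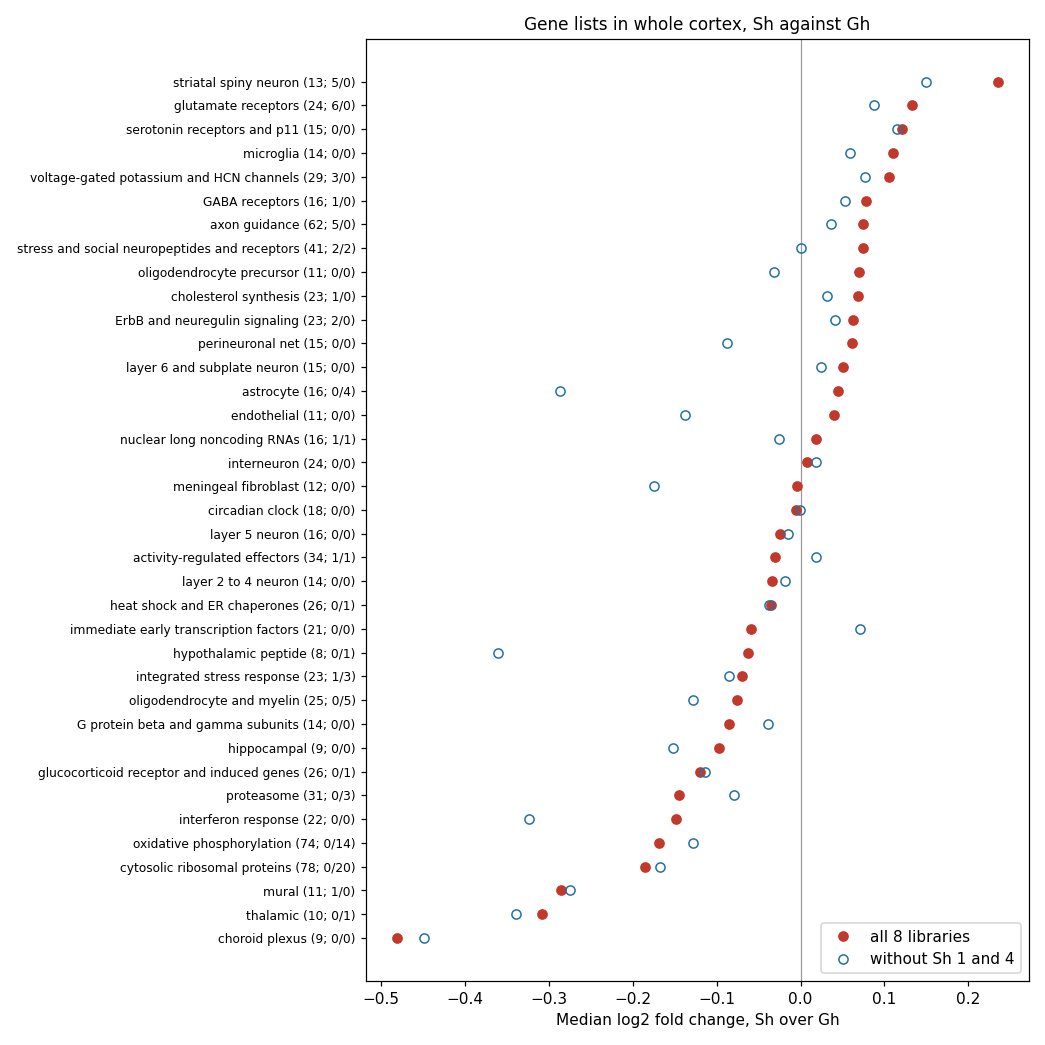
Median log2 fold change, Sh over Gh, of each gene list with at least 5 tested genes, with all 8 libraries (filled) and without Sh replicates 1 and 4 (open); in parentheses, the number of genes tested and the numbers with all Sh libraries above or below all Gh libraries. Ribosomal protein (-0.19) and oxidative phosphorylation (-0.17) genes lie left of 0 in both, and the astrocyte list lies at 0.05 with all libraries and at -0.29 without Sh 1 and 4.

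The serotonin system, the subject of the study, showed no call in whole cortex. S100a10, which encodes p11, an annexin-binding protein that brings serotonin receptors to the membrane, stood at 7.95, 10.3, 8.29 and 6.49 CPM in the Gh libraries and 7.18, 5.82, 7.70 and 5.46 in the Sh libraries. The groups overlapped (log2 fold change -0.34, adjusted p = 0.455, edgeR's quasi-likelihood test, 95% interval -0.68 to 0.01). Htr2a, the 5-HT2A receptor, stood at 23.7, 20.5, 18.0 and 19.0 CPM in the Gh libraries and 21.9, 20.6, 26.0 and 22.1 in the Sh libraries (log2 fold change 0.16, adjusted p = 0.55, interval -0.04 to 0.36), and Htr1a, the 5-HT1A receptor, at 18.7, 20.4, 16.6 and 17.0 CPM in the Gh libraries and 19.5, 20.7, 18.7 and 19.9 in the Sh libraries (log2 fold change 0.12, adjusted p = 0.752, interval -0.12 to 0.36). Of 15 genes of the list tested, 0 were called and 0 were apart between the groups in either direction. Without Sh 1 and 4 S100a10 was at -0.30, Htr2a at 0.20 and Htr1a at 0.12, with none called. The list median was 0.12 with all libraries and 0.12 without Sh 1 and 4, and Htr1f, a receptor of cortical neurons, lay at a log2 fold change of 0.51 (adjusted p = 0.251).

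Among genes that neuronal activity induces, Egr1 and Arc changed differently in the library pairs. Of 21 immediate early transcription factors, 0 were called and the median was -0.06, and of 34 activity-regulated effectors 0 were called, with a median of -0.03. Fos stood at 8.57, 15.4, 11.9 and 8.05 CPM in the Gh libraries and 4.92, 15.9, 16.6 and 6.96 in the Sh libraries. Replicates 2 and 3 were the higher ones in both groups, and Sh 1 was the lowest of all. Egr1 stood at 787, 684, 730.3 and 779 CPM in the Gh libraries and 544, 786, 776 and 564 in the Sh libraries. Sh 1 and 4 lay below every other library. Arc, which encodes an activity-induced protein of synapses and was named after its values were seen, stood at 44.3, 53.2, 55.5 and 50.3 CPM in the Gh libraries and 27.2, 68.7, 65.7 and 29.8 in the Sh libraries, with Sh 1 and 4 lowest and Sh 2 and 3 highest. For replicates 1 and 4 alone the log2 fold changes were -0.50 (Fos), -0.50 (Egr1) and -0.73 (Arc), and for replicates 2 and 3 alone 0.25, 0.14 and 0.31. The difference between the pairs was -0.64 for Egr1 (adjusted p = 5.27e-06) and -1.04 for Arc (adjusted p = 0.000155, edgeR's quasi-likelihood test). The spread in this test is that within pairs found in these same counts, so that these p-values may be too small. For Fos (-0.74, adjusted p = 0.363), Npas4 (-0.71, adjusted p = 0.353) and Bdnf (-0.45, adjusted p = 0.293) the difference did not pass. Arc also divided by pair in Sh + Flx, whose libraries had no such pituitary RNA, at 37.8 and 35.4 CPM in replicates 1 and 4 and 57.8 and 54.2 in replicates 2 and 3, and in the opposite order in Sh + Flx anxious, at 54.3 and 51.4 against 30.6 and 36.5 CPM. Bdnf, brain-derived neurotrophic factor, stood at 31.0, 21.4, 22.9 and 29.2 CPM in the Gh libraries and 30.7, 29.1, 29.7 and 28.1 in the Sh libraries (log2 fold change 0.17, adjusted p = 0.547). It was called higher for replicates 2 and 3 alone (0.41, adjusted p = 0.0227) and lay at -0.03 (adjusted p = 0.95) for replicates 1 and 4. The medians of the 2 activity lists were 0.14 and 0.13 for replicates 2 and 3 and -0.13 and -0.08 for replicates 1 and 4.

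**Figure D5:**
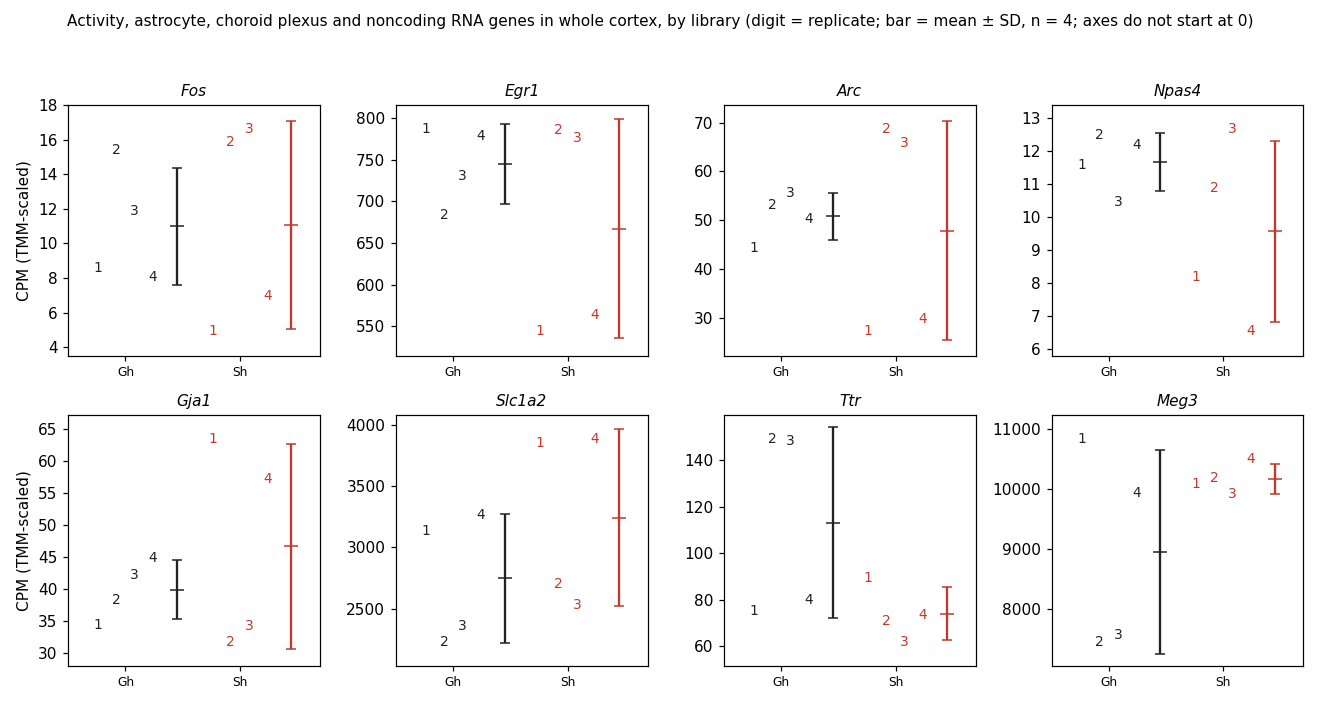
TMM-scaled CPM of activity genes (Fos, Egr1, Arc, Npas4), astrocyte membrane genes (Gja1, Slc1a2), the choroid plexus gene Ttr and the long noncoding RNA Meg3 in each Gh and Sh whole-cortex library (digits are replicate numbers, bars the mean ± SD of 4 libraries, and axes do not start at 0). Replicates 1 and 4 of Sh lie below replicates 2 and 3 for the activity genes and above them for Gja1 and Slc1a2, and Gh 2 and 3 lie above Gh 1 and 4 for Ttr and below them for Meg3.

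Of 26 genes of the glucocorticoid receptors and their induced targets, 1 was called lower, Fam107a (0.0382% of all genes were), and 0 higher (0.0446%). The log2 fold change was negative for 21 of them (median -0.12, -0.11 without Sh 1 and 4). Over all genes the median was -0.01 in both fits. The metallothioneins Mt1 and Mt2, which bind zinc and copper and are abundant in astrocytes, had log2 fold changes of -0.27 and -0.29 (adjusted p = 0.291 and 0.27, edgeR's quasi-likelihood test). Fkbp5, a chaperone of the receptor and its most used target, stood at 13.95, 13.4, 10.6 and 16.3 CPM in the Gh libraries and 13.2, 14.2, 13.5 and 13.8 in the Sh libraries (log2 fold change 0.01, adjusted p = 0.986), with full overlap. Among 41 neuropeptides and receptors of stress and social behavior, 0 were called, 2 (4.88%) lay entirely above, against 2.76% of all genes, and 2 (4.88%) entirely below, against 3.11%, with a median of 0.08 and of 0.001 without Sh 1 and 4. Tac2, which encodes neurokinin B and has been studied in social isolation, stood at 4.80, 3.34, 3.40 and 3.86 CPM in the Gh libraries and 2.38, 2.81, 3.18 and 2.86 in the Sh libraries. The Sh libraries were all below the Gh libraries, but the difference did not pass the test (log2 fold change -0.46, adjusted p = 0.43, edgeR's quasi-likelihood test). Vipr1, a receptor of vasoactive intestinal peptide, stood at 5.62, 4.37, 3.79 and 6.01 CPM in the Gh libraries and 7.72, 6.13, 7.30 and 6.29 in the Sh libraries (log2 fold change 0.47, adjusted p = 0.23). Leaving out Sh 1 and 4, Tac2 lay at -0.37 and Vipr1 at 0.43, with neither called. Clock genes, chaperones, genes of the integrated stress response and interferon-induced genes had medians of -0.01 (18 genes), -0.04 (26), -0.07 (23) and -0.15 (22), with 0 called, and the last was -0.32 without Sh 1 and 4.

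Markers of neighboring structures differed between libraries. Choroid plexus genes had a median of -0.48 over 9 genes (-0.45 without Sh 1 and 4), -0.75 for replicates 2 and 3 with 3 called lower, and -0.11 for replicates 1 and 4. In replicates 2 and 3 alone 1.05% of all genes were called lower. Calls in that fit, here and for the thalamic genes, rest on the spread within pairs, and with pairs summed 0 genes were called. Ttr, transthyretin of the choroid plexus, stood at 75.3, 149, 148 and 80.1 CPM in the Gh libraries and 89.5, 71.0, 62.1 and 73.4 in the Sh libraries. Gh 2 and 3 stood apart from the other 6 libraries. Thalamic genes had a median of -0.31 over 10 (-0.34 without Sh 1 and 4), -0.48 for replicates 2 and 3 with 4 called lower, and -0.003 for replicates 1 and 4, and Tcf7l2, a transcription factor of thalamic neurons, stood at 34.2, 51.5, 61.7 and 31.7 CPM in the Gh libraries and 34.7, 35.9, 30.5 and 31.5 in the Sh libraries, again highest in Gh 2 and 3. Striatal genes had a median of 0.24 over 13, with 5 entirely above (38.5% of the list, against 2.76% of all genes) and 0 called, and of 0.15 without Sh 1 and 4. Drd1a, the D1 dopamine receptor, stood at 29.3, 26.8, 23.6 and 29.1 CPM in the Gh libraries and 39.7, 35.2, 31.7 and 41.9 in the Sh libraries (log2 fold change 0.45, adjusted p = 0.0953, edgeR's quasi-likelihood test), and the summed level of the striatal list was 594 to 668 CPM in Gh and 687 to 792 in Sh. The log2 fold change of Drd1a without Sh 1 and 4 was 0.30 (adjusted p = 0.546). Hippocampal and hypothalamic markers had medians of -0.10 over 9 and -0.06 over 8 genes, and of -0.15 and -0.36 without Sh 1 and 4. The part of these markers in the other results was not tested.

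Replicates 2 and 3 alone gave 319 calls of 15690 genes (2.03%), 154 higher (0.982%) and 165 lower (1.05%), and replicates 1 and 4 alone 35 (0.223%), 9 higher (0.0574%) and 26 lower (0.166%), with 8 genes called in the same direction in both. These fits, and the test of the difference below, take the spread from within pairs picked for likeness. With pairs summed 0 genes were called. The change differed between the pairs for 21 genes (0.134%), 6 with a higher and 15 with a lower change in replicates 1 and 4, by edgeR's quasi-likelihood test of the difference. Among them were Ttr (difference 1.23, adjusted p = 5.27e-06), Meg3, an imprinted long noncoding RNA (difference -0.43, adjusted p = 5.15e-05), and Tcf7l2 (difference 0.78, adjusted p = 0.0319). Meg3 stood at 10830, 7465, 7568 and 9944 CPM in the Gh libraries and 10080, 10190, 9916 and 10510 in the Sh libraries, so that the libraries that differed were Gh 2 and 3. Nuclear long noncoding RNAs as a list had a median of 0.02 over 16 with 0 called, and Rian, transcribed from the same imprinted locus as Meg3, stood at 253, 236, 239 and 236 CPM in the Gh libraries and 285, 309, 299 and 273 in the Sh libraries (log2 fold change 0.27, adjusted p = 0.0929, edgeR's quasi-likelihood test, and 0.33, adjusted p = 0.163, without Sh 1 and 4).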

How the data were processed

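Whole-cortex (input) RNA of pooled mice was amplified with the NuGEN Ovation V2 kit, which does not keep the strand, and sequenced as paired ends. According to the submitters' processing notes and the methods of the study, the authors aligned reads with TopHat2 2.0.11 to mm10 (GRCm38) and used Cufflinks 2.2.1, edgeR 3.8.6 and DESeq2. The deposited tables used here hold raw read counts per gene, without normalization; no source read here names the program that counted them. The rows for reads in no feature (45.1% to 55.2% per library) or in more than 1 gene (0.411% to 0.52%) name no gene and entered neither library sizes nor tests.

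Housing groups were taken from the labels. Genes were filtered by edgeR's filterByExpr, scaled by TMM and tested with edgeR 4.0.16 in R 4.3.3 (quasi-likelihood test, Benjamini-Hochberg adjustment over all genes tested, threshold 0.05) in a fit of all 16 input libraries, so that the spread was estimated over 4 groups of 4, and again without Sh replicates 1 and 4. On simulated data, run first, the edgeR test recovered 41.8% of genes changed 1.3-fold and 90.9% of those changed 2-fold. Without Sh 1 and 4 it recovered 28.4% and 77.3%. A gene that was not called may therefore still differ. DESeq2 1.42.0, other scaling, other filters, the 2 groups alone, a block by replicate number, library pairs and leaving out each library were the alternatives. Intervals are 95% intervals of the fitted log2 fold change. Genes "apart" have no overlap of CPM between the groups and carry no test. Same-numbered Gh and Sh libraries were not treated as pairs. Their deviations from the group means had correlations of -0.00477 to 0.0745, and those of libraries with different numbers -0.0802 to 0.0582. Such values cannot decide whether libraries share litters or handling, which was not tested.

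Named genes were called genes with the smallest p and no overlap (up to 12 in each direction; those called in both fits first, and, where fewer than 5 were, those called with all 8 libraries), up to 4 genes of the smallest p in each list, and a short set of genes of the study (S100a10, Gh, Prl, Pomc, Cga, Mbp, Fos, Fkbp5, Bdnf, Tac2, Htr2a and Htr1a), passing over predicted models. Others are marked as named after their values were seen. The compared groups, the gene lists and the naming rule were chosen with earlier results of these data known. Gene positions, promoters and lengths are of GRCm38. Purified (TRAP) libraries entered no comparison here. The result for 1 gene is not reported here.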

Additional observations from a re-analysis of the deposited data

Results flagged for a closer look

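The libraries of the purified fraction were not part of the comparison, but those labelled Sh replicates 1 and 4 also held pituitary RNA: the sum of the 16 pituitary genes was 102 CPM in Sh TRAP replicate 1 and 106 CPM in replicate 4, against 2.53 to 7.16 CPM in the other 14 purified libraries.

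Of 116 groups of 4 libraries examined for a value far from the rest, 2 had such a value, where chance gives about 5%. For Prl it was 0.0371 CPM in Gh replicate 4 and for the growth hormone gene Gh 0.0395 CPM in Gh replicate 3 (TMM-scaled), each a single read where the other Gh libraries had 0.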

How the results depend on the processing

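With all 8 libraries the 13 calls became 150 with DESeq2, 42 with no filter on low counts, 6 with the Gh and Sh libraries alone, 319 in replicates 2 and 3 alone, 35 in replicates 1 and 4 alone and 0 (edgeR) with pairs summed. Setting aside Sh 1 and 4, the 3 calls became 69, 13 and 8 under the first 3 of these and 5 with a minimum of 1 CPM. The 2 genes called both ways became 49, 10 and 4 under the same 3. Of 828 genes in the lists, the 3 called became 28 with DESeq2, 16 with no filter, 80 in replicates 2 and 3, 13 in replicates 1 and 4 and 0 with pairs summed. Why the counts moved was not tested.

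Leaving out 1 library gave 3 (without Sh 2) to 33 (without Gh 1) calls, and 4 to 7 without any of the other 6, with all 8 libraries at the start. From the 6 libraries without Sh 1 and 4 it gave 0 (without Sh 2 or Sh 3, with 974 and 803 genes at an unadjusted p under 0.05 by edgeR) to 5 (without Gh 4), where the lone Sh library was assumed to vary like the other groups. Genes called both ways numbered 0 (without Sh 2 or Sh 3) to 3, with 1 without Gh 4, and called list genes 1 (without Sh 1, Sh 2 or Gh 4) to 9 (without Gh 1).

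With a block by replicate number there were 4 calls with all 8 libraries, 2 without Sh 1 and 4, 1 both ways (Ndrg2), and 1 in the lists. The labels do not say that the numbers pair the libraries, and not every library correlated best with its own number.

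Ndrg2 was called in 17 of 19 alternatives, Mtf2 in 16 and Fam107a in 15, with Ndrg2 and Mtf2 called whichever of the 8 libraries was left out. Glul and Ncam2 were called in 10, Hs6st2 in 8, Aldoc, Acvr1c, Fat3 and Kcnab3 in 7, Bves in 7 of 18, and Cnr1 and 2810006K23Rik in 6, with adjusted p up to 0.802. No value of a named gene changed its sign while called. The difference between library pairs was chosen after seeing the data. Depth limits genes such as Bves, with 3 to 7 counts a Gh library.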
